A study of Mus musculus with 16 samples.

Results

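The comparison set AMPK-KO C2C12 myoblasts against WT C2C12 myoblasts at day 0, and was carried by 4 of the 16 RNA-seq libraries of the series. C2C12 is an established mouse myoblast line that grows as single cells in serum and fuses into myotubes after serum is lowered. At day 0 the cells are labelled as myoblasts, before that change of medium. The WT group (2 libraries) was unedited, and the AMPK-KO group (2 libraries) had lost both catalytic α subunits of AMP-activated protein kinase (AMPK), encoded by Prkaa1 and Prkaa2, through CRISPR/Cas9 editing and picking of grown clones. The labels name no other allele and no agent in either group. The labels do not give the clone of an AMPK-KO library, while a legend of the study describes its sequencing tracks as coming from independent AMPK-KO lines. Nothing in the labels says that the 2 WT libraries were separate cultures, so that p-values measure only the spread between these libraries. By the study's methods the AMPK-KO cells came through transfection, puromycin selection and clone picking. The WT cells are not labelled as having had any of these steps. An effect of these steps and an effect of AMPK loss therefore cannot be told apart. The day 8 libraries of both genotypes entered the fit to share its estimate of spread, and 8 further day 0 libraries of the same AMPK-null background, in which the Tet2 gene had been tagged in its TET2-WT or TET2-S97E form, are quoted where they bear on a gene. Those 8 libraries stand in a table that was normalized separately, so their levels are set beside the others without a test.

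AMPK is a trimer of a catalytic α subunit with a β and a γ subunit, is switched on when AMP rises and when the upstream kinases STK11 or CAMKK2 phosphorylate the α subunit, and is known for shifting cells from synthesis to energy supply. In skeletal muscle it is known for its part in glucose uptake, fatty acid oxidation and mitochondrial biogenesis. Myoblast identity rests on the transcription factors PAX7, MYF5 and MYOD1, and differentiation on myogenin (MYOG), MYF6 and the MEF2 factors, which bind E-boxes and neighbouring sites at muscle genes, before the membrane proteins myomaker and myomerger fuse the cells.

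The edit in Prkaa2 was made with 1 guide, shown here because it fixes where that gene was cut. Lower-case letters are the guide from its 5′ to its 3′ end and capitals are the PAM, which was read from the GENCODE transcript at the matched site and is not part of the guide.
Prkaa2 guide: acaggcatatggttgtccatAGG
The 20 bases matched the sense strand of exon 4 of 9 of Prkaa2 at chr4:105051266-105051285 (GRCm38, gene on the minus strand). The guide behind the Prkaa1 edit was not analysed here.

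The 4 libraries held 20484982 and 18776790 counts in WT replicates 1 and 2, and 19319119 and 20903834 counts in AMPK-KO replicates 1 and 2. Of 49585 genes in the table, 14329 passed the filter on low counts and were tested. In the text, 4 counts given for a gene are raw counts of its reads in WT replicates 1 and 2 and then AMPK-KO replicates 1 and 2, CPM is the count scaled to the size of the normalized library, and log2 fold changes are AMPK-KO over WT, with the standard error of the fit (n = 2 libraries a genotype). A gene was called where edgeR's quasi-likelihood test gave a Benjamini-Hochberg adjusted p under 0.05 over all 14329 genes.

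Prkaa1 (chr15:5143861-5181899) had 3287 and 2925 counts in WT against 1522 and 1669 in AMPK-KO, and fell by 1.01 ± 0.13 on the log2 scale (adjusted p = 0.0116), a call that was lost without either AMPK-KO library (adjusted p = 0.0997 and 0.0795 without replicates 1 and 2). Prkaa2 (chr4:105029874-105109890) had 35 and 33 counts in WT against 4 and 9 in AMPK-KO, and missed the threshold with a log2 fold change of -2.43 ± 0.51 (adjusted p = 0.0527). Both genes were lower in both AMPK-KO libraries with no overlap. Per exon length, Prkaa1 held 121 TPM (level per exon length) in WT and Prkaa2 0.776, so α1 was by far the more abundant of the catalytic α transcripts in these myoblasts. In the 8 AMPK-null TET2 libraries Prkaa1 lay between 73.1 and 104 CPM, against 159 in both WT libraries. A short insertion or deletion leaves a transcript that reads still count, so the levels describe the mRNA and not the protein. Of the 15 tested genes for AMPK subunits and upstream kinases, 1 fell (Prkaa1) and none rose, with a median log2 fold change of -0.12. Prkag2, a γ subunit, had 250, 324, 163 and 217 counts, and Camkk2, the calcium-dependent upstream kinase, 1185, 702, 564 and 456, and neither passed the test (adjusted p = 0.213 and 0.198).

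Genome-wide, 405 genes were lower and 100 were higher in AMPK-KO, which is 2.83% and 0.698% of the genes tested (3.52% in either direction). These counts come from the fit without a replicate block, and a block gave more calls in both directions, as listed with the other processing choices. The median log2 fold change over all tested genes was -0.00102. All 505 called genes had no overlap between the 2 and 2 libraries, but so did 49.4% of all tested genes (25.7% lower and 23.7% higher in AMPK-KO). The lower genes had a median log2 fold change of -4.20, or -3.59 with the 74 genes at 0 in both AMPK-KO libraries set to their bound against a floor of 3 counts a library. For 153 of them both AMPK-KO libraries held 3 counts or fewer. The higher genes had a median of 2.67, and 11 of the 100 had 3 counts or fewer in both WT libraries. By size, 90 of the 100 higher genes and 380 of the 405 lower genes differed by at least 1 on the log2 scale. In cultures sequenced in bulk, fewer cells that express a gene and less RNA of it per cell cannot be told apart.

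**Figure D1:**
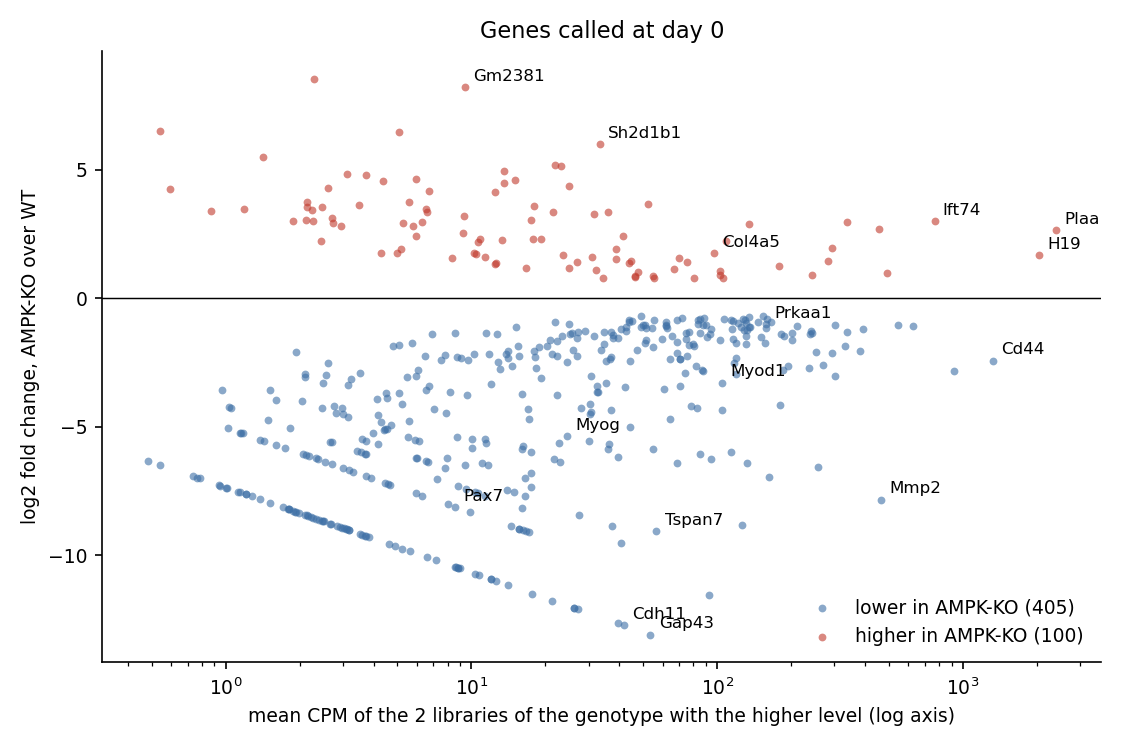
Log2 fold change (AMPK-KO over WT) of each of the 505 called genes against the mean CPM of the genotype with the higher level (log axis). The 405 lower genes (blue) reach -13.10 and the 100 higher ones (red) 8.56, and the lowest straight line of blue points is formed by genes at 0 in both AMPK-KO libraries, whose fitted value depends on the prior count.

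Among the 4 fits that left out 1 library, the number of calls fell most without an AMPK-KO library. Without WT replicate 1, 249 lower and 55 higher genes were called, and without WT replicate 2 377 and 60. Without AMPK-KO replicate 1 the counts were 13 and 4, and without AMPK-KO replicate 2 they were 39 and 7, with 1 AMPK-KO library then assumed to vary like the other groups. The direction of all 505 called genes was kept in these 4 fits, while 13 lower and 3 higher genes were called in every one of them. DESeq2 called 1012 lower and 381 higher genes on the same counts. The medians of gene lists given below also moved with single libraries, and those of 11 of the 36 lists took the other sign in at least 1 of the 4 fits.

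Several myogenic regulators, Pax7, Myod1 and Myog among them, fell in AMPK-KO. Of 15 tested myogenic regulators 5 fell, 0 rose and 10 did not pass the test, with a median of -0.42. Pax7 (chr4:139737062-139833528), the factor of muscle stem cells, had 167 and 169 counts in WT against 0 and 1 in AMPK-KO, a ratio of 347 with a 95% exact counting interval of 61.9 to 13758 (log2 -8.13 ± 0.87, adjusted p = 0.00863). Myod1 (chr7:46376474-46379099), the myoblast determination factor, had 1606 and 2450 against 151 and 291 counts and was 9.78-fold lower (log2 -3.29 ± 0.45, adjusted p = 0.0147). Myog (chr1:134289989-134292548), the differentiation factor, had 612 and 361 against 12 and 12 counts and was 41.3-fold lower (log2 -5.36 ± 0.68, adjusted p = 0.0116). For these 3 genes both WT libraries stood well above both AMPK-KO libraries, and the calls were lost without AMPK-KO replicate 1 and without AMPK-KO replicate 2 (highest adjusted p 0.0727 for Pax7, 0.117 for Myod1 and 0.106 for Myog). The AMPK-null libraries with tagged Tet2 came from 2 clones of each form with 2 libraries a clone, and the difference between the forms was not tested. Pax7 lay between 0.0453 and 0.159 CPM in the 4 TET2-WT libraries and between 1.65 and 10.5 in the 4 TET2-S97E libraries, against 8.05 and 9.16 in WT. Myod1 lay between 7.16 and 26.05 CPM in TET2-WT and between 27.6 and 147 in TET2-S97E (77.5 and 133 in WT), and Myog between 0.408 and 13.8 and between 42.003 and 179 (19.6 and 29.5 in WT). All 3 genes were thus below both WT libraries in the 4 TET2-WT libraries but not in every TET2-S97E library. Vgll2, a cofactor of TEAD factors in muscle, had 793 and 745 against 8 and 14 counts, and Msc (musculin, a repressor of E-box activity) had 134 and 300 against 0 and 2.

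Myf5 did not follow them. It had 1017 and 1141 counts in WT against 1275 and 1106 in AMPK-KO, with overlapping groups and a log2 fold change of 0.09 ± 0.21 (adjusted p = 0.845). Myf6 was filtered out with 0, 6, 1 and 4 counts. The Tet genes, which encode the 5-methylcytosine dioxygenases, were not called. Tet1 had 76, 76, 68 and 99 counts, Tet2 462, 254, 303 and 312, and Tet3 1086, 817, 568 and 795, with adjusted p = 0.929, 0.675 and 0.148. None of the 15 tested genes of the DNA methylation machinery was called by edgeR (3 at an unadjusted p under 0.05, 1 by DESeq2), and their median was -0.02.

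**Figure D2:**
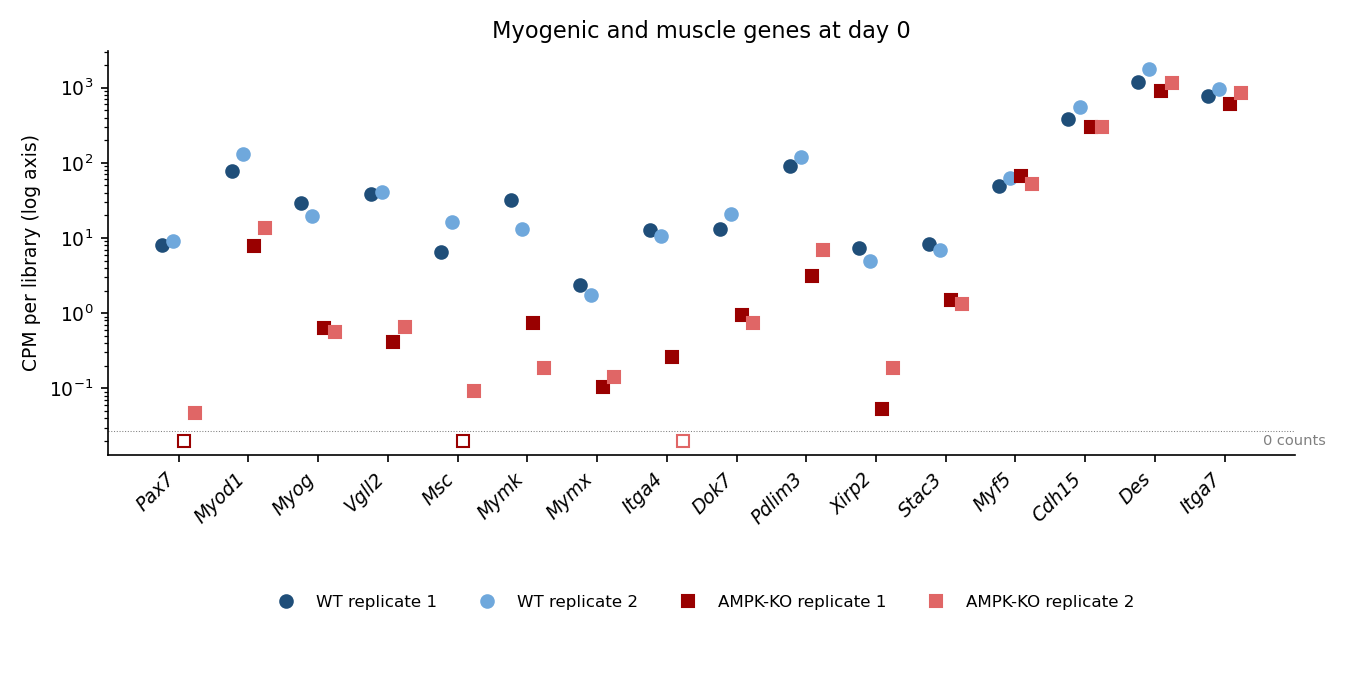
CPM (log axis) of 16 muscle genes in each of the 4 libraries, with circles for WT, squares for AMPK-KO and open squares for 0 counts. The 12 genes on the left were called and have both WT points above both AMPK-KO points, whereas Myf5, Cdh15, Des and Itga7 on the right were not called.

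Markers of the labelled cell type fell in part. Of 8 tested myoblast markers 3 fell (Pax7, Myod1 and Msc), and the others remained at high counts in every library. Des (desmin, the muscle intermediate filament) had 24294 and 32300 against 17070 and 24382 counts, Cdh15 (M-cadherin) 7893 and 10141 against 5646 and 6312, and Itga7, a laminin receptor of muscle cells, 15879 and 17821 against 11508 and 17873. Chrna1, the α subunit of the acetylcholine receptor, had 10110 and 13329 against 4379 and 8933. None of the 4 passed the test (adjusted p between 0.197 and 0.711). The cells labelled AMPK-KO thus carried the muscle markers Des, Cdh15, Itga7 and Myf5 but next to no Pax7 or Msc.

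The fusion proteins Mymk and Mymx and the neuromuscular junction gene Dok7 fell in AMPK-KO. Of 22 tested genes of myoblast adhesion and fusion 4 fell and 0 rose (median -0.52). Mymk (myomaker) had 668 and 244 against 14 and 4 counts (log2 -5.64 ± 1.01, adjusted p = 0.0331), and Mymx (myomerger) 49 and 32 against 2 and 3 (log2 -3.99 ± 0.79, adjusted p = 0.0447). Mymk was 49.4-fold lower, 122-fold without AMPK-KO replicate 1 and 28.8-fold without WT replicate 1, and when 1 library was left out its call held in 1 of the 4 fits and that of Mymx in none (highest adjusted p 0.163 and 0.251). Itga4, the α4 integrin subunit, had 265 and 196 against 5 and 0. Myof (myoferlin, a membrane fusion protein) changed least of the 4, with 11567 and 9760 against 5570 and 5101 counts, 2.05-fold lower. Of 11 tested neuromuscular junction genes 1 fell, Dok7, the cytoplasmic activator of the receptor kinase MuSK, with 275 and 385 against 18 and 16 counts, 20.2-fold lower.

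Among contractile genes Pdlim3 and Xirp2 fell. Of 48 tested sarcomere genes 2 fell, Pdlim3 (an α-actinin binding protein, 1880 and 2172 against 60 and 149 counts, 20.6-fold) and Xirp2 (an actin-binding protein, 152 and 91 against 1 and 4, 51.2-fold), and 46 were not called. Without AMPK-KO replicate 2 the ratio of Pdlim3 was 33.2-fold. That of Xirp2 was then 117-fold, but this value rests on 1 count in the AMPK-KO library left and is not an exact fold. The log2 fold change was negative in 42 of the 48, with a median of -2.42, or -1.70 with the 7 genes at 0 in a genotype at their bound. The 2 genotypes did not overlap for 36 of the 48. Over all genes tested 49.4% had no overlap and 2.83% were called lower, so 2 calls among 48 are near the general share. Among those not called, Ttn (titin) had 1023 and 824 against 64 and 128 counts (adjusted p = 0.054) and Mylpf, a fast myosin light chain, 825 and 491 against 91 and 44 (adjusted p = 0.0561). Of 18 tested genes of excitation-contraction coupling 1 fell, Stac3, a component of the calcium release complex, with 170 and 126 against 29 and 28 counts (5.32-fold). The list's median was -1.86, or -1.74 with the gene at 0 at its bound, and 16 were negative. None of 15 tested genes of muscle energy metabolism was called by edgeR (3 at an unadjusted p under 0.05, 3 by DESeq2, median -0.61, or -0.06 without AMPK-KO replicate 1).

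Promoter windows were read for 8 called muscle genes (Myog, Pax7, Vgll2, Itga4, Myof, Dok7, Pdlim3 and Xirp2), and are shown for the differentiation factor Myog and for Itga4 and Pdlim3, the 2 of the 8 that hold the E-box form CAGCTG. The other 6, Myog among them, hold no CAGCTG, and Pax7 and Myof hold no E-box of any form. Each is the RefSeq window of 300 bases (250 before to 50 after the start of the gene) on the gene's strand in GRCm38.p6, with every E-box (CANNTG, read on both strands) in capitals. The windows lie at chr1:134289754-134290053 (Myog, plus strand), chr2:79255176-79255475 (Itga4, plus strand) and chr8:45885237-45885536 (Pdlim3, plus strand).
Myog: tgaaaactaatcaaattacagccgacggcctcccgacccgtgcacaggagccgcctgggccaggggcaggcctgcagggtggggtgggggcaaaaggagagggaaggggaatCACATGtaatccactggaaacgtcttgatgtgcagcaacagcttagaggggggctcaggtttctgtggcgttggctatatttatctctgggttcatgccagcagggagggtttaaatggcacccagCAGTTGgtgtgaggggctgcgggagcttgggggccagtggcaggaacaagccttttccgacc
Itga4: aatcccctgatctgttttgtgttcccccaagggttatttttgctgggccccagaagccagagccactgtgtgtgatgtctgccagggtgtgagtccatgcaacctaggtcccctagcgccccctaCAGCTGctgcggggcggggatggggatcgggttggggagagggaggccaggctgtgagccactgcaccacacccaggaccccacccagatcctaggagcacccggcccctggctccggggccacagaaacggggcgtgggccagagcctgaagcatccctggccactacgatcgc
Pdlim3: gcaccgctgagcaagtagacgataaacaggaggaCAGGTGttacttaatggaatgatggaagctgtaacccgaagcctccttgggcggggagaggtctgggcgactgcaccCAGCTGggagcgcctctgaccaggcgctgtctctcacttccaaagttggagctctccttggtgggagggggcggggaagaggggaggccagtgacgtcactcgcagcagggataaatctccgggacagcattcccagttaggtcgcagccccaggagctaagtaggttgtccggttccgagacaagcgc
A window was found for 276 of the 405 lower genes, 72 of the 100 higher genes and 10444 of the tested genes. CAGCTG, which reads the same on both strands and is one form of CANNTG, stood in 26.8% of the windows of lower genes, 12.5% of those of higher genes, 15.3% of those of all tested genes and 16.1% of all 27025 windows of the reference. CANNTG stood in 73.2%, 69.4%, 63.1% and 72.1%. The windows also differed in base composition, with a median of 16 CpG in lower genes, 15 in higher genes and 21 in tested genes. The shares were described without a test, and a match is not a bound site.

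The most abundant protein-coding genes that fell by at least 1 on the log2 scale were led by Cd44. Cd44, the hyaluronan receptor, had 22777 and 28495 counts in WT against 4514 and 5407 in AMPK-KO (5.41-fold, log2 -2.43 ± 0.36, adjusted p = 0.0175). Hspb1, a small heat shock protein, had 13258 and 22281 against 2219 and 2998 counts (7.21-fold), and Pdpn, the surface glycoprotein podoplanin, 7596 and 5441 against 1407 and 2327 (3.63-fold). For all 3 both WT libraries stood above both AMPK-KO libraries, and for Cd44 and Pdpn the gap between the genotypes was wider than that between replicates. Slc6a6, the taurine transporter, had 14969 and 9716 against 5694 and 6187 counts, and Klf6, a zinc-finger transcription factor, 7438 and 7864 against 3573 and 3348. Wdr36, a ribosome biogenesis factor, had 5289 and 7796 against 2647 and 2885 counts. These 3 were between 2.13-fold and 2.48-fold lower.

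Collagen genes were called in both directions. Of 29 tested collagen genes 1 fell and 2 rose (median -0.41, or 0.00 without WT replicate 1). Col18a1, the source of endostatin in basement membranes, had 3654 and 7926 against 442 and 1103 counts (8.11-fold lower). Col4a5 and Col4a6, 2 chains of basement membrane collagen IV that lie head to head on the X chromosome (chrX:141475385-141689234 and chrX:141165403-141474076), had 679 and 448 against 1808 and 2118 and 22 and 6 against 297 and 201 counts, and rose 3.40-fold and 18-fold (adjusted p = 0.00861 and 0.0131). The 2 neighbours of the X chromosome were thus higher in both AMPK-KO libraries, with no overlap. Col18a1 was 13.1-fold lower without AMPK-KO replicate 2. Without WT replicate 2 Col18a1 was 4.72-fold lower and Col4a6 11.8-fold higher, and without WT replicate 1 Col4a6 was 38.3-fold higher.

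Of 35 tested matrix glycoproteins and proteoglycans 3 fell and 0 rose (median -0.51, or 0.11 without WT replicate 1). Tnc (tenascin C, a matrix protein of development and wounds) had 6669 and 8088 against 1229 and 2533 counts (4.16-fold). Lama4, a laminin chain, had 382 and 55 counts in WT and Sparcl1, a relative of osteonectin, 55 and 22, both against 0 and 0, and were at least 72.0-fold and 12.9-fold lower, counted against the floor. Without WT replicate 1 these bounds were 20.1-fold and 8.02-fold. Of 23 tested matrix proteases and their inhibitors 6 fell and 0 rose (median -1.14). Mmp2, the gelatinase A, had 16966 and 2040 against 50 and 31 counts (228-fold, log2 -7.84 ± 1.08, adjusted p = 0.015). Without WT replicate 1 Mmp2 was 54.4-fold and without WT replicate 2 402-fold lower, and its call was lost without either AMPK-KO library (highest adjusted p 0.119). Adamts2, the procollagen N-proteinase, had 1774 and 452 against 23 and 15, and Plat, the tissue plasminogen activator, 1908 and 901 against 210 and 348. Serpine2, an inhibitor of thrombin and plasminogen activators, had 1513 and 159 against 0 and 2. Adamts4, an aggrecanase, and Mmp3, stromelysin 1, completed the 6.

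The WT replicates were far from equal for some of the lower genes. Among the 405 lower genes 75 stood over 2-fold higher in WT replicate 1 than in replicate 2, and 31 over 2-fold higher in replicate 2. By more than 5-fold it was 15 and 1. Bmp4, a bone morphogenetic protein, was an example with 1455 and 81 counts in WT against 2 and 1 in AMPK-KO. The summed level of the fibroblast markers was 491 and 280 CPM in WT against 34.6 and 41.3 in AMPK-KO, with Ly6a the most abundant. Without Ly6a and Cd34 it was 63.1 and 26.2 against 26.7 and 35.3 CPM, and the genotypes overlapped. Of 6 tested fibroblast markers, 2 fell, Cd34 (2464 and 851 against 76 and 96 counts) and Ly6a (6413 and 3823 against 75 and 32), while Pdgfra had 505 and 245 against 284 and 543, and Tcf21 and Thy1 were at 0 in all 4 libraries. Ly6a has close copies beside it on chromosome 15 that may share its reads. The share of mitochondrial counts was 1.36% and 0.568% in WT against 1.16% and 0.666% in AMPK-KO, higher in replicate 1 of either genotype. The part of either in the result was not tested.

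**Figure D3:**
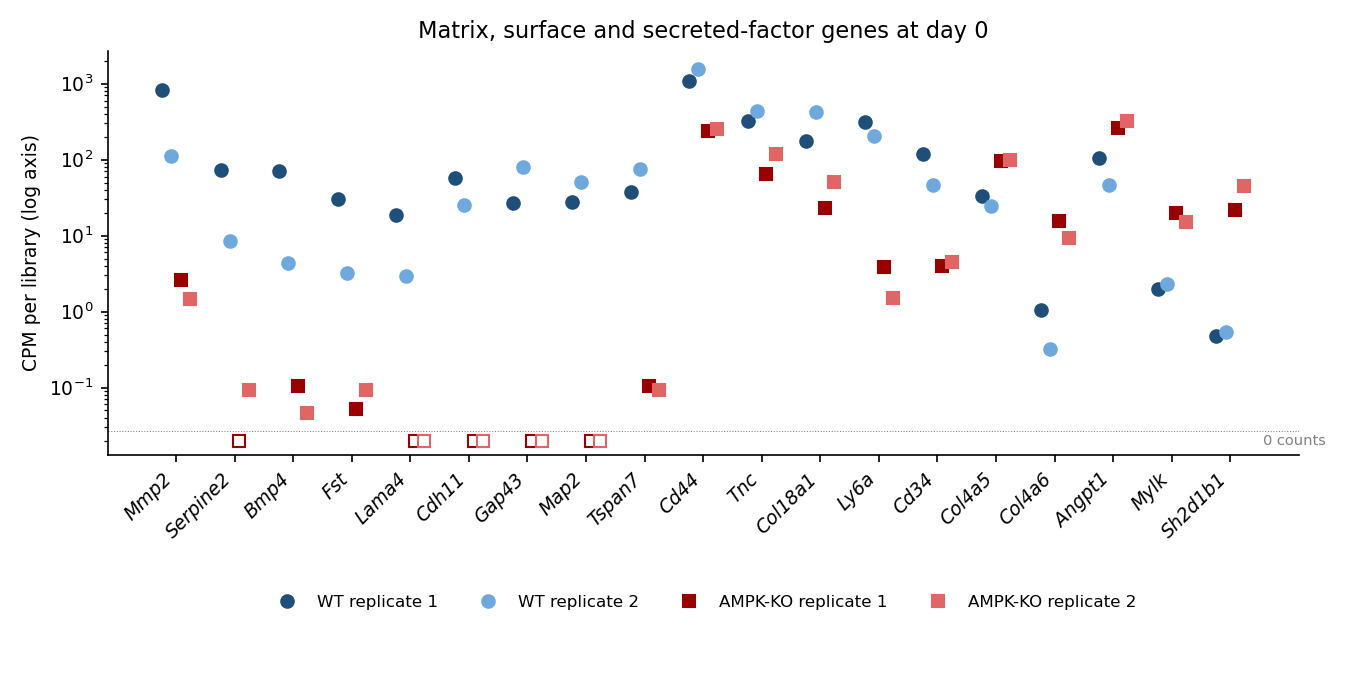
CPM (log axis) of 19 matrix, surface and secreted-factor genes in each of the 4 libraries, with circles for WT, squares for AMPK-KO and open squares for 0 counts. For Mmp2, Serpine2, Bmp4, Fst and Lama4 the 2 WT points lie far apart and above AMPK-KO, and the last 5 genes, from Col4a5 to Sh2d1b1, are higher in AMPK-KO.

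Gap43, Map2 and Tubb3, markers of neural cells, fell steeply. Gap43, a growth cone protein, had 551 and 1483 counts in WT against 0 and 0 in AMPK-KO, at least 360-fold lower against the floor (adjusted p = 0.0148). Map2, a microtubule protein, had 575 and 948 against 0 and 0 (at least 266-fold, adjusted p = 0.00559), and Tubb3, a β-tubulin, 2676 and 4243 against 220 and 186 (17.8-fold). Of the 5 tested neural and Schwann cell markers these 3 fell. The list's summed level was 185 and 362 CPM in WT against 12.4 and 10.3 in AMPK-KO, with Tubb3 the most abundant, and the neuronal markers Rbfox3 and Snap25 were at 0 in all 4 libraries. Tspan7, a tetraspanin of the cell surface, had 778 and 1397 against 2 and 2 counts (572-fold), Pnmal2 520 and 553 against 0 and 3, and Sorbs2, an adaptor of the actin cytoskeleton, 2952 and 2034 against 10 and 1 (443-fold). Of these ratios and bounds, that of Gap43 was at least 179-fold and that of Tspan7 379-fold without WT replicate 2. That of Sorbs2 was 241-fold without AMPK-KO replicate 2. Without AMPK-KO replicate 1 it was 2702-fold, but this value rests on 1 count in the AMPK-KO library left and is not an exact fold. In the 8 AMPK-null TET2 libraries Gap43, Map2 and Tspan7 were at most 0.0458, 0.13 and 0.106 CPM, whereas Mmp2 lay between 1.36 and 8.80 CPM in the 4 TET2-WT libraries and between 45.8 and 181 in the 4 TET2-S97E libraries, against 818 and 111 in WT.

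Axon guidance genes were called in both directions. Of 48 tested axon guidance genes 5 fell and 2 rose (median -0.20, or -0.15 with genes at 0 at their bound). Unc5c, a netrin receptor, had 774 and 97 counts in WT against 0 and 0 in AMPK-KO (at least 143-fold lower, or 35.4-fold without WT replicate 1), and Efna5, an ephrin ligand, 151 and 114 against 14 and 11. Sema4d, Sema6d and Plxna4 also fell. Sema5a, a transmembrane semaphorin, rose from 2408 and 1620 to 4621 and 6891 counts (2.77-fold, log2 1.47 ± 0.22, adjusted p = 0.0175), and Epha7, an ephrin receptor, from 16 and 8 to 420 and 175 (25-fold, or 13.6-fold without AMPK-KO replicate 1). Of 10 tested cadherins 1 fell, Cdh11, a mesenchymal cadherin, with 1206 and 467 against 0 and 0 counts (at least 281-fold, or 170-fold without WT replicate 1, adjusted p = 0.00888). Cdh2 (N-cadherin) had 3512 and 3059 against 3992 and 4596 counts and was not called (adjusted p = 0.269).

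Of 34 tested TGF-β and BMP genes 5 fell and 0 rose (median -0.58, or -0.55 with genes at 0 at their bound). They were the ligand Bmp4, the receptor Bmpr1b, the antagonists Nog (noggin, 46 and 69 against 0 and 0 counts) and Fst (follistatin, 622 and 59 against 1 and 2), and the signal transducer Smad5 (2671 and 2587 against 1401 and 1854). Of 36 tested Wnt genes 3 fell and 1 rose (median -0.87, or -0.19 without WT replicate 1). The secreted antagonists Dkk3 (455 and 110 against 1 and 2) and Sfrp1 (614 and 46 against 1 and 1) and the receptor Ror2 (114 and 35 against 0 and 0) fell, and Lef1, a nuclear partner of β-catenin, rose from 205 and 197 to 818 and 747 counts (3.78-fold, adjusted p = 0.0271).

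Notch1 was the called gene among 21 tested Notch genes (1111 and 1739 against 164 and 231 counts, 7.63-fold lower, list median -0.29). Its partners Jag2, a ligand, and Hey1, a target, were not called (adjusted p = 0.153 and 0.136). In the IGF axis, with 17 tested, Igfbp3, an IGF-binding protein, fell from 220 and 211 to 2 and 3 counts and the noncoding RNA H19 rose from 12487 and 12405 to 33557 and 49558 (3.20-fold, log2 1.68 ± 0.26, adjusted p = 0.0218). The list's median was -0.16, or 0.15 without WT replicate 1. Of 38 tested growth factor receptors and ligands Pdgfd and Gfra2 fell (median -0.24), and of 20 tested chemokines and cytokines Cxcl5, a neutrophil attractant, fell from 227 and 114 to 0 and 0 counts (median -1.07).

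Sox11, Sox12 and Sox5 fell in AMPK-KO. Of 8 tested SOX factors 3 fell (median -2.67). Sox11, a factor of progenitor cells, had 1804 and 1590 against 155 and 366 counts, Sox12 61 and 76 against 0 and 0, and Sox5 30 and 24 against 0 and 0. All 8 log2 fold changes were negative. Of 25 tested HOX genes 1 fell (Hoxb4, median 0.11, or -0.13 without WT replicate 2), and of 27 patterning factors 1 fell (Foxf1, median -0.15). None of 14 tested fate regulators of fat, bone and cartilage was called by edgeR (1 at an unadjusted p under 0.05, 1 by DESeq2, median -0.02).

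Imprinted genes held calls in both directions. Imprinted genes are expressed from one parental allele. Of 17 tested 2 fell and 2 rose (median 0.23). Peg3 and Zim1, neighbours on chromosome 7 (chr7:6703892-6730431 and chr7:6671269-6696450), fell from 4864 and 5605 to 634 and 1199 counts (6.03-fold, adjusted p = 0.00946) and from 422 and 200 to 53 and 80 (4.79-fold). H19 rose as given above, and Plagl1, a zinc-finger factor, rose from 9 and 8 to 365 and 172 counts (31.3-fold, or 18.5-fold without AMPK-KO replicate 1, adjusted p = 0.0348). Peg3 and Zim1 are expressed from opposite parental alleles, and allelic reads were not analysed here.

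Slc16a3, Pfkp and Aldoc of the glycolysis list fell. Of 29 tested AMPK substrates and effectors none was called by edgeR (3 at an unadjusted p under 0.05, 1 by DESeq2, median -0.20), and of 29 tested genes of cholesterol and fatty acid synthesis 1 fell (median -0.26, or 0.06 without WT replicate 1). Of 21 tested glycolysis genes 3 fell (median -0.25, or 0.07 without WT replicate 2). Slc16a3, the lactate exporter MCT4, had 669 and 764 against 34 and 39 counts (20.5-fold, log2 -4.35 ± 0.31, adjusted p = 0.00343), Pfkp, a phosphofructokinase, 2555 and 3313 against 916 and 1244, and Aldoc, an aldolase, 71 and 31 against 6 and 7.

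Of 27 tested NRF2 targets and antioxidant genes 2 fell (median 0.08). Sod3, the extracellular superoxide dismutase, had 2283 and 494 against 20 and 12 counts, and Gpx3, a secreted glutathione peroxidase, 511 and 191 against 5 and 1. Of 27 tested genes of the ER and integrated stress response 1 fell (Vldlr, median -0.01), and of 16 potassium channel genes 1 fell (Kcna3, median -2.38, or -0.59 with genes at 0 at their bound).

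Of 33 tested DNA replication genes none was called by edgeR (1 at an unadjusted p under 0.05, 0 by DESeq2), with a positive log2 fold change in 31 and a median of 0.29, or 0.07 without AMPK-KO replicate 1 and 0.66 without WT replicate 2. Their summed level was 2544 and 3397 CPM in WT against 4154 and 3048 in AMPK-KO, so that the genotypes overlapped. They also overlapped for all but 12 of the 33 genes, while 49.4% of all genes tested had no overlap. One of the 12 was Prim1, a primase subunit, with 881 and 1227 against 2047 and 1932 counts (adjusted p = 0.138). None of 30 tested mitosis genes was called by edgeR or DESeq2, and 0 had an unadjusted p under 0.05 (median -0.07). None of 18 tested genes of cell cycle exit was called by edgeR (7 at an unadjusted p under 0.05, 2 by DESeq2, median -0.40), and none of 27 interferon-stimulated genes (3 and 1, median -0.32, or -0.29 with genes at 0 at their bound) or of 13 genes of MHC class I and antigen processing (2 and 1, median -0.38). By unadjusted p under 0.05, 2995 of the 14329 tested genes passed. Of 17 tested smooth muscle and myofibroblast genes 1 rose, Mylk, the myosin light chain kinase, from 41 and 42 to 377 and 328 counts (8.24-fold, log2 3.04 ± 0.30, adjusted p = 0.00842), and the list's median was -0.47.

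**Figure D4:**
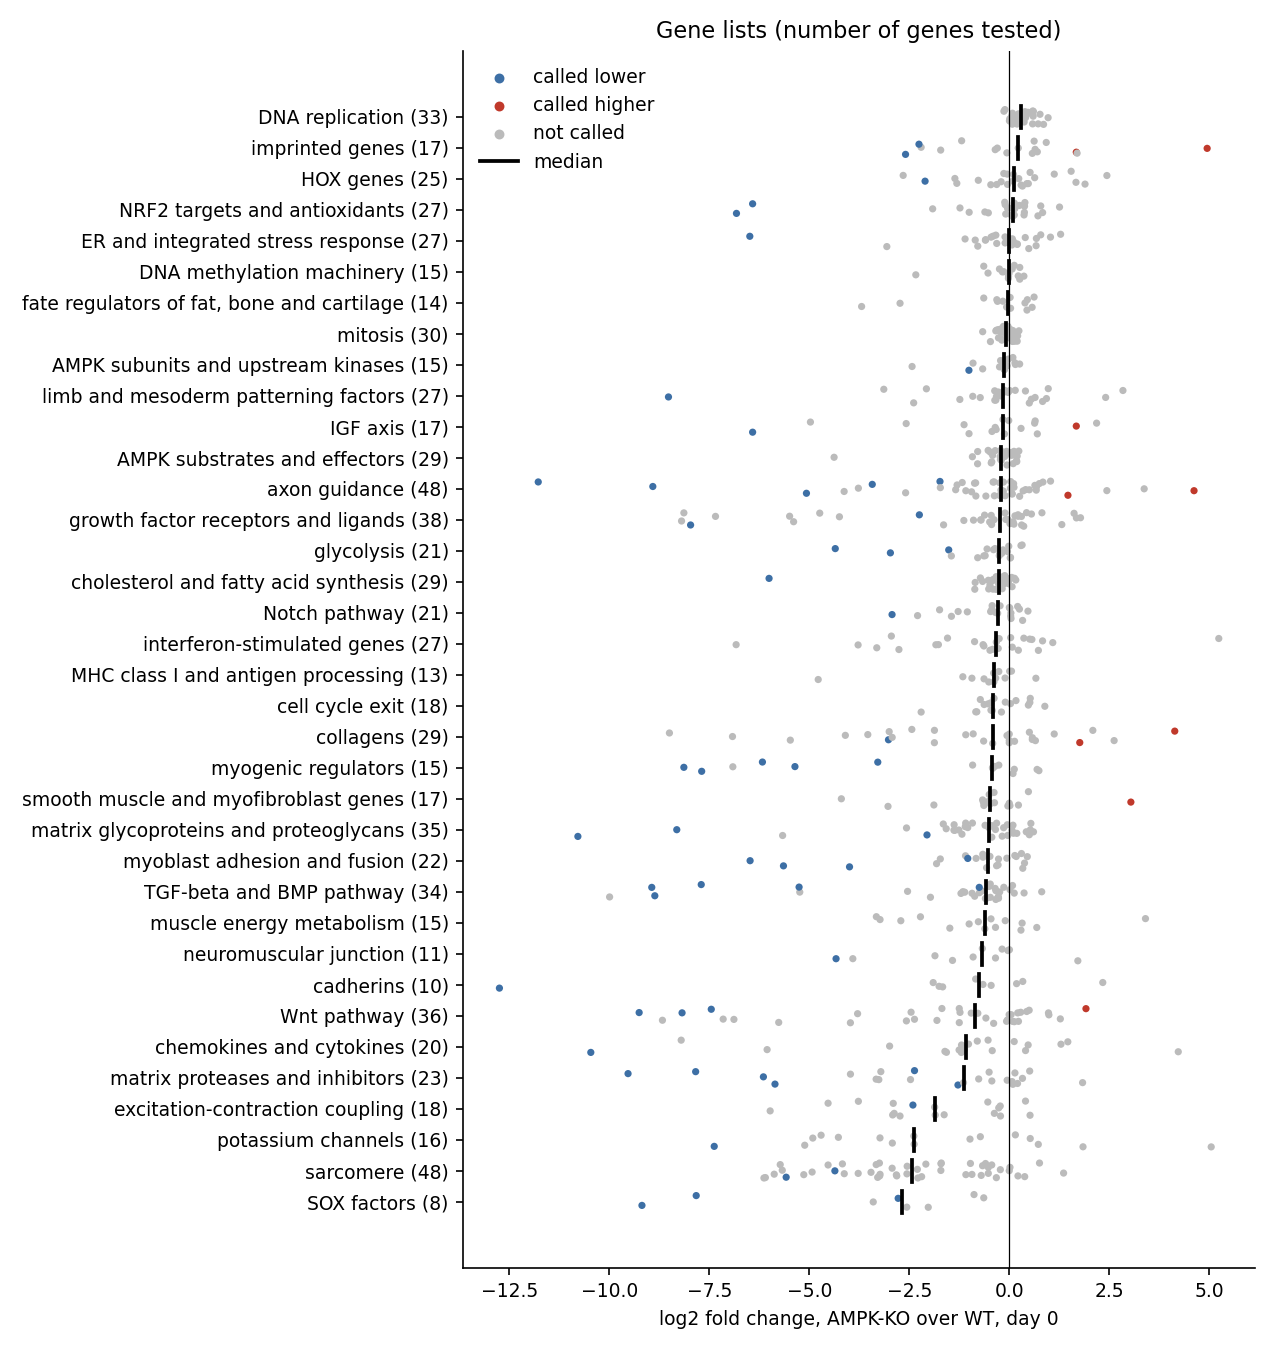
Log2 fold change (AMPK-KO over WT, day 0) of each tested member of 36 gene lists, ordered by median (black bar), with the number tested in brackets and blue, red and grey points for called lower, called higher and not called. DNA replication genes lie close together, 31 of 33 to the right of 0, and sarcomere genes spread to the left with 2 called.

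The most abundant protein-coding genes that rose by at least 1 on the log2 scale were led by neighbours on chromosome 4. Of the 10 most abundant, 5 (Plaa, Ift74, Mysm1, Caap1 and Tusc1) lay within 1.64 Mb. Plaa, a ubiquitin-binding factor, had 8174 and 6810 counts in WT against 32610 and 65500 in AMPK-KO (6.25-fold, log2 2.64 ± 0.47, adjusted p = 0.0317). Ift74, a carrier protein of cilia, had 2001 and 1770 against 8161 and 23663 (7.97-fold), and Mysm1, a histone H2A deubiquitinase, 1784 and 1032 against 7062 and 11662 (6.44-fold). Caap1, an apoptosis regulator, had 868 and 815 against 3382 and 10634 counts, and Tusc1 464 and 260 against 1664 and 3921. In all 5 genes AMPK-KO replicate 2 was the highest library and both AMPK-KO libraries stood above WT. None of the 5 was called in any fit that left out 1 library (highest adjusted p from 0.0809 for Tusc1 to 0.183 for Caap1), and Caap1 was not called with a mean of at least 50 counts (adjusted p = 0.0584). Without AMPK-KO replicate 2 Ift74 was 4.44-fold higher, and without AMPK-KO replicate 1 11.5-fold.

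The stretch was chosen after its values were seen, and its ends were set at its first and last called protein-coding gene. Both ends were therefore called by choice. It ran from Tusc1 to Mysm1 (chr4:93334138-94979100) and held 7 protein-coding genes at 1 CPM or more in a genotype, of which 6 rose, by 2.64 to 2.99 on the log2 scale. Besides those 5 it was Lrrc19 (13 and 18 against 78 and 182 counts, likewise not called when 1 library was left out), which lies within Ift74 on the other strand, so that without stranded counting their reads cannot be told apart, and the gene that did not pass was Tek, an angiopoietin receptor, with 67 and 87 against 39 and 170. Before the stretch the nearest such gene was Gm12666 with 43 and 57 against 80 and 63 counts (log2 0.47 ± 0.39), and the next was Mtap with 3114 and 3662 against 4167 and 5175 (log2 0.40 ± 0.18). Jun, the first gene beyond Mysm1, had 5175 and 4000 against 12371 and 10578 (log2 1.29 ± 0.28, adjusted p = 0.0558). After it came Fggy (log2 -0.15 ± 0.24), Cyp2j6 (87 and 23 against 129 and 209 counts, log2 1.59 ± 0.54) and Nfia (32 and 10 against 3 and 2 counts, log2 -3.02 ± 0.74), and none of these 6 flanking protein-coding genes was called. Noncoding genes were called too, Gm12655 inside the stretch (12 and 15 against 65 and 152 counts) and Junos beyond Mysm1 (35 and 47 against 237 and 654, log2 3.34 ± 0.48), so that the higher genes did not end at Mysm1. Junos overlaps Jun on the other strand, and their reads cannot be told apart without stranded counting. Kank4os, a further antisense gene at chr4:98793768-98798900, rose from 14 and 9 to 97 and 171 counts. Over windows of 9 neighbouring genes across the genome the median log2 fold change had a 1st and a 99th percentile of -0.78 and 0.53, and the highest value, 2.69, was that of the window from Mtap to Mysm1. The median over the 7 genes was 4.47-fold the WT level in AMPK-KO replicate 1 and 10.1-fold in replicate 2.

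The AMPK-null TET2 libraries differed among themselves in the same stretch. Set against the same 2 WT libraries, and normalized in another table, the median of the 7 genes was 14.1 and 10.6 times the WT level in the 2 libraries of TET2-WT clone 1 and 7.78 and 4.68 times in those of clone 2. It was 5.74 and 4.23 times in TET2-S97E clone 1 and 1.70 and 1.32 times in TET2-S97E clone 2. The stretch ends 10.1 Mb before Prkaa2, which lies on the same chromosome. The DNA of these cells was not analysed here.

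**Figure D5:**
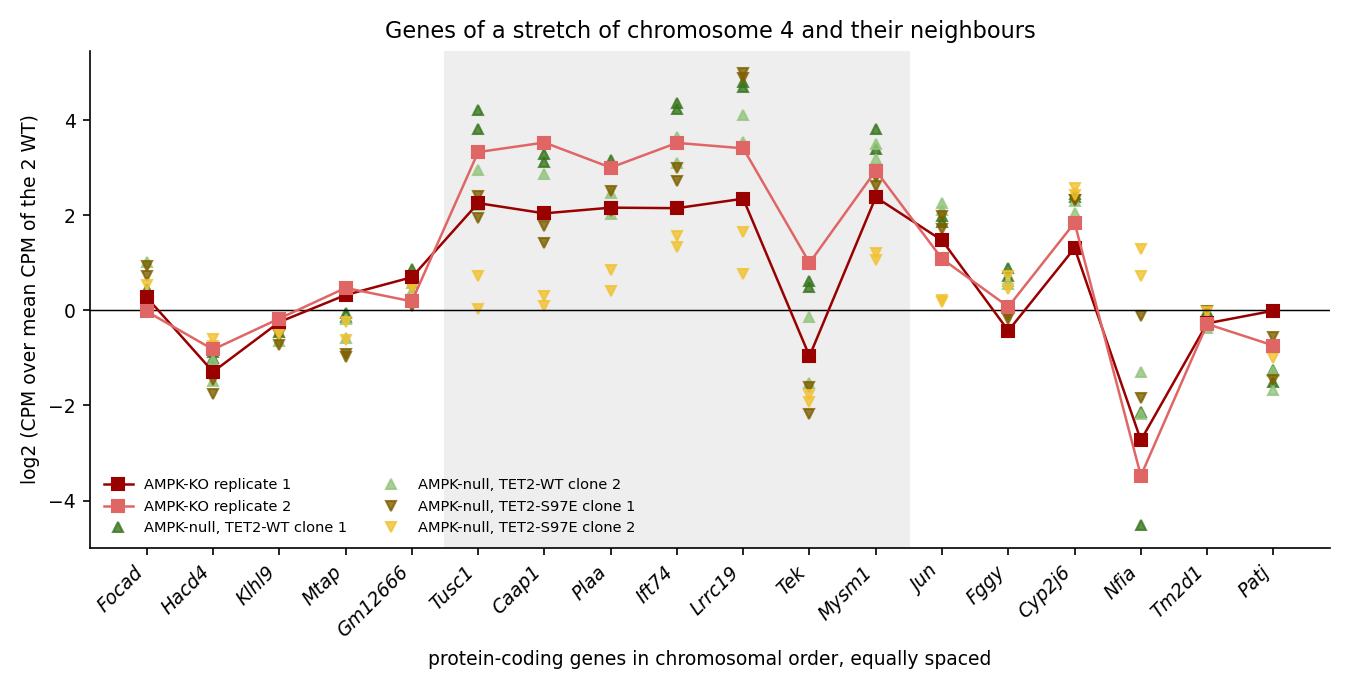
Log2 ratio of CPM to the mean CPM of the 2 WT libraries for 18 protein-coding genes in chromosomal order, equally spaced, with joined squares for the AMPK-KO libraries, triangles for the 8 AMPK-null TET2 libraries and shading from Tusc1 to Mysm1. The shaded genes other than Tek stand above 0 in both AMPK-KO libraries, and for these 6 genes the 2 libraries of TET2-S97E clone 2 lie lowest.

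Of the other 5 most abundant, Sema5a was given above. Angpt1, the ligand of TEK, rose from 2188 and 866 to 5057 and 6896 counts (3.85-fold, log2 1.94 ± 0.40, adjusted p = 0.0473), and 6.25-fold without WT replicate 1. Tnk2, a non-receptor tyrosine kinase, rose from 1450 and 1422 to 3439 and 3760 (2.42-fold), and Hacd2, an enzyme of very long fatty acid elongation, from 436 and 473 to 1606 and 2871 (4.68-fold). Hacd2 (chr16:35022428-35109177) begins just beyond the end of Mylk (chr16:34745210-35002420), and both rose. Sh3bp4, an endocytic adaptor, rose from 1076 and 877 to 1859 and 2304 (2.06-fold).

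By ratio the top of the higher genes held several that were barely read in WT. Sh2d1b1, an SH2 adaptor of blood cells, had 10 and 10 counts in WT against 415 and 962 in AMPK-KO (65.1-fold, log2 6.01 ± 0.52, adjusted p = 0.00576), while the blood cell markers Ptprc, Itgam, Adgre1 and Tyrobp were at 0 in all 4 libraries. Its neighbour and near copy Sh2d1b2 may share reads with it. Fgfbp1, a carrier of fibroblast growth factors, had 5 and 18 against 353 and 544 counts (36.1-fold), and the predicted gene Gm2381 1 and 0 against 168 and 213. Gabrb2, a GABA-A receptor subunit, had 0 and 2 against 92 and 115. Adam23, Rspo1 (an enhancer of Wnt signals) and Elovl7, a fatty acid elongase, rose between 22.7-fold and 25.3-fold. Without 1 of the libraries these 3 ratios ran from 10.6-fold to 41.6-fold, that of Fgfbp1 from 22.5-fold to 91.04-fold and that of Sh2d1b1 from 42.4-fold to 87.8-fold.

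Markers of blood, endothelial, epithelial and fat cells were low or absent in both genotypes. Of 3 tested macrophage and other blood cell markers none was called by edgeR or DESeq2 (0 at an unadjusted p under 0.05), the most abundant being Cd14 with 220, 250, 262 and 395 counts, and summed levels were 13.02, 16.3, 16.9 and 21.8 CPM. The endothelial markers summed to 5.55, 6.02, 2.56 and 8.98 CPM, with Tek the most abundant. Of 3 tested none was called by either tool (0 at an unadjusted p under 0.05), and Cdh5 and Pecam1 had 3 counts or fewer a library. The epithelial markers summed to 9.60, 3.47, 8.74 and 14.9 CPM with Krt14 the most abundant over the 4 libraries, 3 tested and none called by edgeR (1 at an unadjusted p under 0.05, 1 by DESeq2), and Krt5 at 0 in all 4 libraries. The 1 was Krt8, a keratin of simple epithelia, with 2 and 11 against 18 and 272 counts (log2 4.31, adjusted p = 0.128). Its AMPK-KO mean thus rests on replicate 2. In AMPK-KO replicate 1 Krt14 had more counts (131) than Krt8. The adipocyte markers, none tested, had at most 2 counts a gene in any library.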

How the data were processed

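RNA-seq of 4 day 0 libraries was compared. The authors aligned trimmed reads to mm10 with STAR 2.5.3a and counted them over GENCODE genes with featureCounts 1.5.3, and the deposited values are raw counts per gene and library. The strand setting of the counting is not given in the sources used here. Genes were filtered with filterByExpr, scaled by TMM and fitted in edgeR 4.0.16 (R 4.3.3) over the 8 WT and AMPK-KO libraries of days 0 and 8, which left 4 residual degrees of freedom and a common biological coefficient of variation of 0.281. edgeR's quasi-likelihood test of AMPK-KO against WT at day 0 was adjusted by Benjamini-Hochberg, and DESeq2 1.42.0, another scaling, other filters, a day 0 fit, a replicate block and the omission of each library were alternatives. Standard errors were taken as the log2 fold change over the root of F. An exact permutation test of 2 against 2 libraries cannot go below p = 0.33. TPM used merged exon lengths of GENCODE M21. Counting intervals (95%, exact) and the floor of 3 counts a library cover counting error only. In a simulation of the day 0 comparison (13939 genes), edgeR found 116 of 196 altered genes (log2 change of 2) with 1 false call. DESeq2 found 143 with 43 false calls, and the sign of a found gene was checked for edgeR only. The simulated counts were independent between libraries and had the fitted spread. Deviations shared by real libraries were thus left out, and the false calls are not an error rate of these data. The guide was read from the study's oligonucleotide list.

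The members and lists were chosen with earlier results of these data known. Named genes were those the study targets or measures, the 10 most abundant and the 10 with the largest ratio in each direction among called protein-coding genes without overlap, and up to 4 members of each list with the lowest p. Other called members of the 36 gene lists and 7 marker lists, and neighbours on a chromosome, were named after their values were seen. Values of 3 called genes are not reported here.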

Additional observations from a re-analysis of the deposited data

How the results depend on the processing

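The 405 lower and 100 higher calls became 419 and 102 with DESeq2 size factors, 283 and 75 with a mean of at least 50 counts, 285 and 50 with the day 0 libraries alone, 1453 and 573 without a filter on low counts and 1012 and 381 with DESeq2. Leaving out 1 library gave 13 to 377 lower and 4 to 60 higher calls. Prkaa1 was not called with the day 0 libraries alone (log2 -1.01, adjusted p = 0.0512), and ranged from -1.03 to -1.003 when 1 library was left out. Prkaa2 was called without the filter (log2 -2.42, adjusted p = 0.000949) and by DESeq2 (log2 -2.45, adjusted p = 0.00642). Uncalled genes changed sign without WT replicate 1 (Tet1 -0.02, Tet2 0.14, Myf5 -0.07), without AMPK-KO replicate 1 (Myf5 -0.11) and without AMPK-KO replicate 2 (Tet1 -0.15). Over the 4 omissions their log2 fold changes ran from -0.15 to 0.24 for Tet1, from -0.55 to 0.14 for Tet2 and from -0.11 to 0.28 for Myf5. The cause was not tested. The replicate block gave 568 lower and 172 higher calls. WT and AMPK-KO libraries with the same number deviated together across genes (r = 0.267 at day 0, and from 0.129 to 0.392 over the 6 pairs of the 4 groups fitted), but with 2 pairs in a comparison and no label of a shared batch the numbers were not taken as pairs. Of the 43 called genes named by rule, 38 lost their call without AMPK-KO replicate 1, 37 without AMPK-KO replicate 2 and 19 without either WT replicate in turn. Leaving out 1 library turned the sign of the median in 11 of the 36 lists, with the widest turns in cadherins (-0.75 to 0.04) and matrix glycoproteins and proteoglycans (-0.51 to 0.11), both without WT replicate 1. With 2 libraries a genotype, genes of low counts and genes whose replicates differ are the least certain.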

Other observations

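Over windows of 9 neighbouring genes the lowest median log2 fold change, -2.87, was at chr1:133619862-134332928, from Zc3h11a to Ppfia4, where Myog was the called gene. In that window Prelp, a matrix proteoglycan, had 701 and 30 counts in WT against 2 and 0 in AMPK-KO (adjusted p = 0.0686), and Mybph, a myosin-binding protein, 245 and 170 against 15 and 3 (adjusted p = 0.0648). A window at chr15:74702301-75222661 had a median of -2.03, with Ly6a, Ly6c1 (2173 and 1543 against 29 and 20 counts) and Ly6c2 (324 and 155 against 0 and 0) called by edgeR. The Ly6 genes are near copies of each other, and how shared reads were counted was not tested. These windows were chosen after their values were seen.

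The 13 lower genes called in each of the 4 fits that left out 1 library were Map2, Serping1, Enho, Gpr153, Creld1, Pnmal2, Bcam, Susd5, Ank3, Serpinb9b, Syk, Mamdc2 and Tspan7, and the 3 higher genes were Sh2d1b1, Gm2381 and Gm773. Of the 505 called genes, 121 lower and 61 higher ones were called in none of these 4 fits.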
